A study of Mus musculus with 4 samples.

Results

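The Cyp3a genes encode cytochrome P450 enzymes of subfamily 3A, and 9 of them, named by their symbols in the mm9 annotation, were followed among 22367 protein-coding genes: Cyp3a11, Cyp3a13, Cyp3a16, Cyp3a25, Cyp3a41a, Cyp3a41b, Cyp3a44, Cyp3a57 and Cyp3a59. Their position at the nuclear lamina was read from DamID of primary mouse hepatocytes. DamID leaves an adenine mark at GATC sites wherever the Dam enzyme, here tethered to the lamina through LaminB1, has come into contact with the DNA. Lamina-associated domains (LADs) were segments with a raised ratio of LaminB1-Dam to Dam alone. Differential regions (DRs) were stretches that were LAD in 1 genotype only.

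The groups were WT hepatocytes and hepatocytes of Tm7sf2/NET47 KO mice, with a LaminB1-Dam library and a Dam control library for each, 4 libraries in all. Tm7sf2 is a sterol reductase of the endoplasmic reticulum and the nuclear envelope. All mice were 12 to 16 weeks old and on a C57BL/6 background. In both genotypes, cells were isolated by collagenase perfusion, kept in serum-free medium with dexamethasone, insulin and epidermal growth factor, and exposed to lentivirus for 24 h. Culture then went on, with the medium renewed daily, until DNA was taken. DNA of 4 mice was pooled for each condition, only part of the cells took up the virus, and the sex of the mice was not given in the sources used here. There was therefore 1 LAD list for each genotype, with no replicate and no signal value in any interval. No error can be attached to a border, no test between genotypes could be made, and differences between WT and KO below compare those 2 lists. The depth behind each interval is not in the lists, and by the study's account the KO libraries held fewer usable reads than the WT libraries. The lists also hold no RNA measurement, so neither the loss of Tm7sf2 nor the hepatocyte label could be checked from them.

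CYP3A enzymes sit in the membrane of the endoplasmic reticulum of hepatocytes and enterocytes, where they oxidize steroids, bile acids and a large share of prescribed drugs, with electrons passed on from cytochrome P450 reductase. Transcription of the subfamily is induced through the nuclear receptors PXR and CAR, which bind DNA with RXR, and dexamethasone is a classical inducer in rodents. Cyp3a11 is the main inducible form of adult mouse liver, Cyp3a16 is best known from fetal and newborn liver, and Cyp3a41 and Cyp3a44 are known for higher expression in females. Chromatin at the lamina is mostly poor in active genes, which is why the position of a cluster that holds Cyp3a11 is of interest.

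Of the 9 genes, 8 formed a cluster on chromosome 5, chr5:146106148-146924861 in NCBIM37 (mm9), a stretch of 819 kb. The order from the lower coordinate was Cyp3a57, Cyp3a16, Cyp3a41b, Cyp3a41a, Cyp3a44, Cyp3a11, Cyp3a25 and Cyp3a59. Cyp3a57 and Cyp3a59 at the ends were transcribed from the plus strand and the 6 genes between them from the minus strand. Each gene had 13 exons, and the spans ran from 25.5 kb in Cyp3a11 to 45.2 kb in Cyp3a57. The ninth gene, Cyp3a13, lay alone 7.74 Mb below the cluster.

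In the coding sequence the 8 cluster genes fell into 2 groups. Cyp3a57, Cyp3a25 and Cyp3a59 were 93.9% to 97.5% identical to each other. Cyp3a16, Cyp3a41a, Cyp3a41b, Cyp3a44 and Cyp3a11 were 92.4% to 99.9% identical to each other. Between those groups the identity was 74.5% to 76.1%, about the level at which Cyp3a13 stood to any of them, 74.9% to 76.6%. The closest pair, Cyp3a41a and Cyp3a41b, differed at 2 of 1515 aligned bases. The grouping by sequence did not follow the order on the chromosome, since Cyp3a57 at the lower end was closest to Cyp3a59 at the upper end, with 94.2%.

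Promoters from RefSeq (GRCm38.p6), 250 bases before and 50 bases after each start, were found as exact matches in NCBIM37 for all 9 genes. Printed here are 4 of them, with GATC in capitals because it is the site that Dam methylates: Cyp3a11, whose start lay outside the WT LADs, Cyp3a41a and Cyp3a59 as one gene from each sequence group, and Cyp3a13 from outside the cluster.
Cyp3a11, chr5:146691381-146691680, minus strand: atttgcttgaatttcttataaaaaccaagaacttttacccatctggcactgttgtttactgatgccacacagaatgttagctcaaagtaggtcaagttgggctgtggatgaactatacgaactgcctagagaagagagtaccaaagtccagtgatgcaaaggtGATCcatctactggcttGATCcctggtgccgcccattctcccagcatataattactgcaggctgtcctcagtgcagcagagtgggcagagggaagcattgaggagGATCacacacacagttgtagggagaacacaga
Cyp3a41a, chr5:146531663-146531962, minus strand: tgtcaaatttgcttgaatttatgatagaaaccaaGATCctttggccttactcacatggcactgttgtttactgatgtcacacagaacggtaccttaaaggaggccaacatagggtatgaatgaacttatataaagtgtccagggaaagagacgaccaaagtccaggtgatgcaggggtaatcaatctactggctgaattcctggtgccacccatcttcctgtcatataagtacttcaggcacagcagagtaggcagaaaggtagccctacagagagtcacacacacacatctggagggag
Cyp3a59, chr5:146890584-146890883, plus strand: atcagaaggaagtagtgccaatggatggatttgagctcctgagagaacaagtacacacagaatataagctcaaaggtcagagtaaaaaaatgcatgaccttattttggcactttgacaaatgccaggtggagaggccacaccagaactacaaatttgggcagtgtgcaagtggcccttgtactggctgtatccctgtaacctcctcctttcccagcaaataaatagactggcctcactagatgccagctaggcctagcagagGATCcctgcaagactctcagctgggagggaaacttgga
Cyp3a13, chr5:138362798-138363097, minus strand: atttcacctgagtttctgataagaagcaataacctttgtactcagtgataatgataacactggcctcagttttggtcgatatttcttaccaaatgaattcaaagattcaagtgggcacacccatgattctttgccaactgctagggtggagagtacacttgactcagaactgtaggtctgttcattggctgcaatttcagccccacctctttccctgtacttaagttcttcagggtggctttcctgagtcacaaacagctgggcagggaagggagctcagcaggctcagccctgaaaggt

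GATC was present in 7 of the 9 promoters, and in 48.0% of all 32851 RefSeq promoters of this length. Cyp3a11 held 3 sites and Cyp3a44 held 2, while Cyp3a13 and Cyp3a57 had no site inside the window. The letters TATAAA, searched on both strands, occurred in 5 members, Cyp3a16, Cyp3a41b, Cyp3a41a, Cyp3a44 and Cyp3a11, and in 13.6% of all promoters. These are the 5 of the second sequence group. The letters were counted wherever they stood in the window. In the printed windows of Cyp3a11 and Cyp3a41a they stood at different places, so they are not a site shared by the whole group. Paired hexamers of the kinds bound by PXR with RXR were searched on both strands in strict form. The direct repeat DR3 was spelled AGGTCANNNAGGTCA, AGGTCANNNAGTTCA, AGTTCANNNAGGTCA or AGTTCANNNAGTTCA, and the everted repeat ER6 was spelled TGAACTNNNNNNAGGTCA, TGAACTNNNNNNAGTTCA, TGACCTNNNNNNAGGTCA or TGACCTNNNNNNAGTTCA. Neither was in any of the 9 windows, and they were in 0.0122% and 0.00913% of all promoters. That says only that these letters were not in these windows.

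In WT hepatocytes the cluster lay almost wholly at the lamina. WT LADs covered 730 kb of it, or 89.2%, and 95.0% once the 50 kb assembly gap at chr5:146422976-146472975, which has no sequence, was left out. In KO hepatocytes LADs covered 271 kb, or 33.1%, and 35.3% without the gap. Of the WT LAD bases in the cluster, 459 kb (62.9%) were in no KO LAD and 37.1% were kept. No KO LAD base lay outside the WT LADs, so within the cluster the KO list held only losses.

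There were 5 WT LADs over the cluster and 9 KO LADs. The WT LADs were 15.2 to 339 kb long with a median of 138 kb. The KO LADs were 10.6 to 72.2 kb long with a median of 29.8 kb. By the study's account, LADs were also more numerous and on average shorter in KO over the whole genome. More and shorter KO LADs are therefore not particular to the cluster. The first WT LAD held Cyp3a57, Cyp3a16 and Cyp3a41b whole, the next one Cyp3a41a and Cyp3a44 whole and nearly all of Cyp3a11, and the last one Cyp3a59 whole, while Cyp3a25 was divided between the remaining ones. The first 2 WT LADs ended exactly at the assembly gap, so the interval between them was unsequenced and not a measured release. The other WT intervals were 8.7, 14.1 and 15.6 kb long.

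WT-only DRs numbered 12 in the cluster and covered 454 kb, or 55.5%, and KO-only DRs covered 0 bases. Their lengths were 11.9 to 113 kb with a median of 30.3 kb. Of the 12, 6 lay at the edge of a WT LAD, 5 opened within a WT LAD between KO LADs, and 1 took up a WT LAD entirely. The longest, chr5:146310365-146422975, held Cyp3a41b. The next, chr5:146875189-146980230, held Cyp3a59 and was 105 kb long. The DR of 73.6 kb at chr5:146485591-146559209 held Cyp3a41a.

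**Figure D1:**
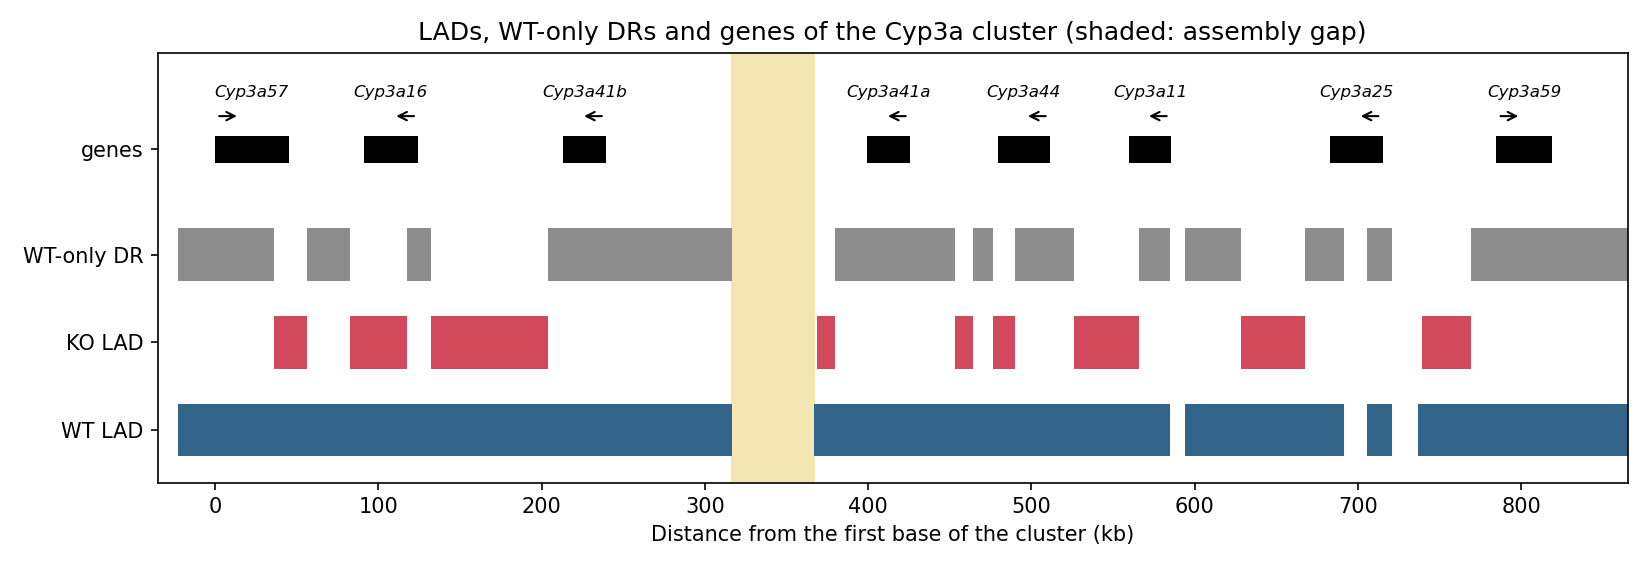
WT LADs, KO LADs, WT-only DRs and the 8 genes of the Cyp3a cluster against the distance from the first base of the cluster in kb. Arrows give the direction of transcription from each start, the shaded strip is the 50 kb assembly gap, and the first and last intervals run past the cluster. The 5 WT LADs cover 89.2% of the cluster, and the 9 KO LADs lie inside them and cover 33.1%.

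The study called a gene PI, from periphery to interior, where it overlapped a WT-only DR, and here an overlap of at least 1 base counted. All 8 cluster genes were PI by this rule and Cyp3a13 was II, interior in both genotypes. Among all protein-coding genes 5.43% were PI and 56.6% were II. Most genes are not in WT LADs to begin with, and among the 5809 genes with at least 50% of their span in WT LADs, as all 8 cluster genes had, 18.5% were PI. Since 1 base was enough for the class, the share of the span says more. At least 50% of the span lay in WT-only DRs in 7 of the 8 genes and in 2.23% of all genes. The latter were 498 genes, all of them among the 5809, because a WT-only DR lies within a WT LAD. The median share over the 8 genes was 78.3%, and over all genes called PI it was 34.9%. The 8 genes are neighbours at 1 locus under 5 WT LADs, so they do not count as separate observations beside these shares.

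Cyp3a41b (chr5:146319544-146345599, minus strand) was covered over its full 26.1 kb by WT LAD and by WT-only DR, 100% for each, and 0% of it was in KO LADs. Its near-identical copy Cyp3a41a (chr5:146505635-146531712, minus strand) had the same values, 100% in the WT list and 0% in the KO list. Both encode the female-biased CYP3A41 of mouse liver. Cyp3a59 (chr5:146890834-146924861, plus strand), at the upper end, was the third gene with its span of 34.0 kb entirely in a WT-only DR. All 3 had complete coverage in the WT list and none in the KO list, but the first 2 cannot be told apart by most of their sequence and do not count as separate observations.

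Cyp3a25 (chr5:146788770-146821194, minus strand) was the gene with the least WT coverage in the cluster. WT LADs covered 56.6% of its 32.4 kb and KO LADs covered 0%, so that all of its lamina-associated sequence was lost although 43.4% of the gene had been outside LADs already. The stretch outside LADs ran from intron 3 to intron 10, so exons 4 to 10 lay in no LAD of either genotype.

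In the remaining 4 genes part of the span stayed in a KO LAD. Cyp3a57 (chr5:146106148-146151381, plus strand), at the lower end, was 100% in WT and 19.4% in KO LADs. Cyp3a11 (chr5:146666002-146691540, minus strand), the main inducible form, was 98.8% in WT and 22.7% in KO LADs, with 76.1% in a WT-only DR. Cyp3a44 (chr5:146585559-146617450, minus strand) was 100% in WT and 33.1% in KO LADs. Cyp3a16 (chr5:146197178-146230592, minus strand), the fetal form, was 100% in WT and 79.5% in KO LADs and had the smallest share in a WT-only DR, 20.5%. It was thus the only one of the 8 genes with most of its span still at the lamina in the KO list.

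**Figure D2:**
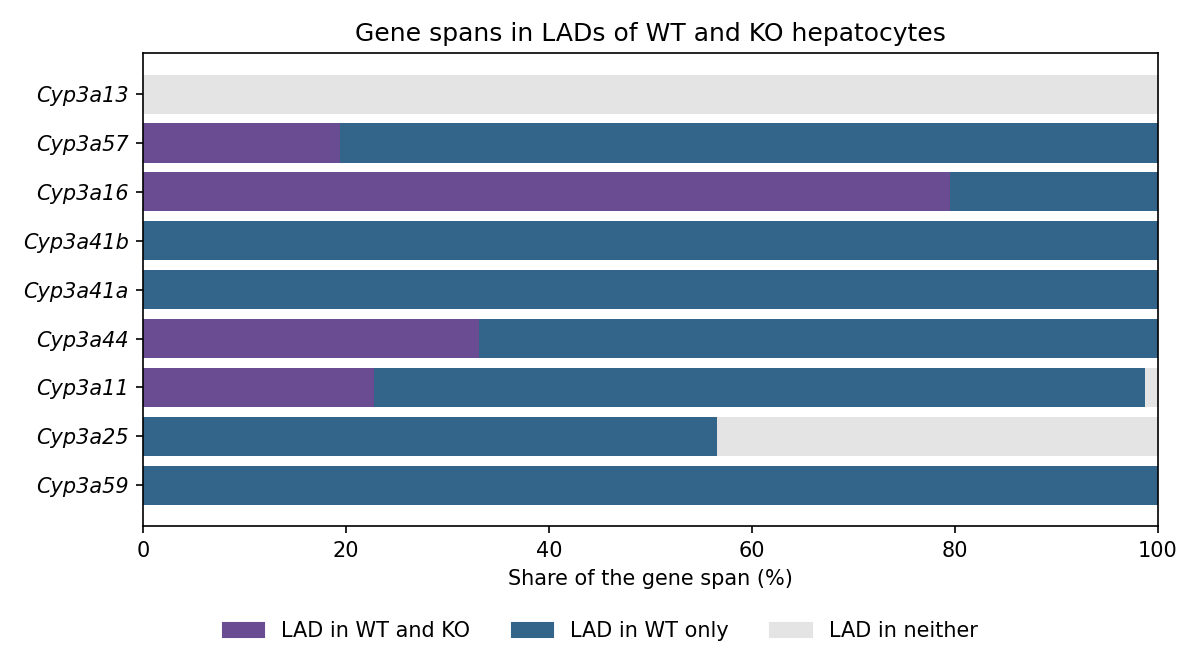
Share of each gene span in percent that lay in LADs of both genotypes, of WT only or of neither, for the 9 Cyp3a genes ordered by position. Cyp3a41b, Cyp3a41a and Cyp3a59 are wholly WT-only, Cyp3a16 keeps 79.5% in the KO list, and Cyp3a13 lies in no LAD.

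The start sites were more uniform than the spans. In the WT list 7 of the 8 cluster starts were inside a LAD, and in the KO list 0 of 8. All 7 were in WT-only DRs, as were the starts of 2.23% of all genes, and of the 5077 genes with a start in a WT LAD, 11.5% had it in no KO LAD. The distance from a start to the nearest KO LAD was 6.84 kb for Cyp3a16, 14.9 kb for Cyp3a44, 15.6 kb for Cyp3a59 and 19.7 kb for Cyp3a11. It was 24.2 kb for Cyp3a25, 27.5 kb for Cyp3a41a, 35.2 kb for Cyp3a41b and 36.4 kb for Cyp3a57. Every RefSeq promoter window of the cluster except that of Cyp3a11 lay 100% inside a WT LAD, and all 8 had 0% in KO LADs.

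KO LADs that reached a gene lay over its 3′ end. WT LADs held the gene end of 8 of 8 genes and KO LADs that of 4, Cyp3a57, Cyp3a16, Cyp3a44 and Cyp3a11. Downstream of the midpoint of the gene, KO LADs covered 38.9% of Cyp3a57, 100% of Cyp3a16, 66.2% of Cyp3a44 and 45.5% of Cyp3a11. Upstream of the midpoint they covered 59.1% of Cyp3a16 and 0% of the other 3. With 4 genes on 2 strands this is a description of where the KO intervals fell, and 3 of the 4 genes share a strand and close sequence. The share of gene ends in LADs was not computed over all genes. The placement is therefore not shown to be particular to these genes.

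The exons were placed against the same intervals as the spans, so they describe these at finer scale and add no separate observation. Exons of 1 gene are not independent of each other, and no share over all exons was computed. Of the 104 exons in the cluster, 80 touched a LAD in WT only, 16 in both genotypes, 0 in KO only and 8 in neither. All 13 exons were WT-only in Cyp3a41a, Cyp3a41b and Cyp3a59. In Cyp3a57 11 exons were WT-only and exons 12 and 13 stayed in a KO LAD. In Cyp3a11 the same 2 exons stayed, 10 were WT-only, and exon 1 was in neither list. In Cyp3a44 10 were WT-only and 3 stayed, and in Cyp3a16 4 were WT-only and 9 stayed. Cyp3a25 had 6 WT-only exons and 7 in neither list.

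**Figure D3:**
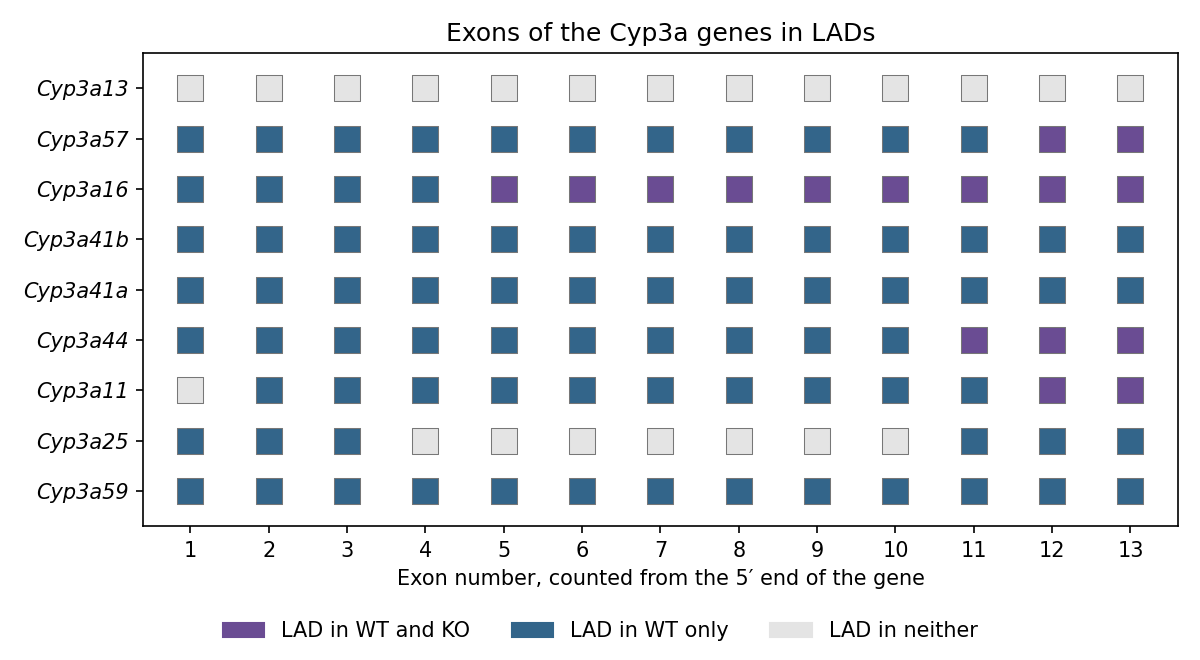
The 13 exons of each Cyp3a gene, numbered from the 5′ end, coloured by the genotypes in which the exon touches a LAD by at least 1 base. Exons that stay in a KO LAD lie at the 3′ end of Cyp3a57, Cyp3a16, Cyp3a44 and Cyp3a11, and no exon is in a LAD of KO only.

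Exon 1 of Cyp3a11, chr5:146691282-146691540, was the only first exon of the cluster outside the WT LADs. The WT LAD that covered the rest of the gene ended at base 146691239 in intron 1, which is 43 bases from exon 1, 301 bases from the GENCODE start and 191 bases from the RefSeq start. The next WT LAD began at base 146699942, and no KO LAD lay in between. Between the border and the start there were 4 GATC sites for the GENCODE start and 2 for the RefSeq start. The offset is small for a border without a known error, and with 5 kb on each side of the starts 8 of 8 touched a WT LAD, Cyp3a11 included. In the KO list the nearest LAD ended in intron 11.

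LAD borders followed the digestion sites or the assembly gap, so GATC spacing is a lower limit to how finely they can be read. The segmentation that called them adds an error that is not known, and the shortest LAD over the cluster was 10.6 kb long. The cluster held 2481 GATC sites, 1 in every 310 bases outside the assembly gap. Of the 10 WT borders 8 fell at a GATC and the other 2 at the assembly gap, and of the 18 KO borders 18 fell at a GATC. A border lay inside a member in 3 WT and 4 KO cases, each in an intron. Those 7 borders are printed with 20 bases on each side and with the GATC at the border in capitals.
Cyp3a57 intron 11, lower border of a KO LAD, chr5:146142568-146142607, plus strand: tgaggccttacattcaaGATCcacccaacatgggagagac
Cyp3a16 intron 4, upper border of a KO LAD, chr5:146223736-146223775, plus strand: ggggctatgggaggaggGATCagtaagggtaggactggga
Cyp3a44 intron 10, upper border of a KO LAD, chr5:146596093-146596132, plus strand: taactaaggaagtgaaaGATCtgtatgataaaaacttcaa
Cyp3a11 intron 11, upper border of a KO LAD, chr5:146671789-146671828, plus strand: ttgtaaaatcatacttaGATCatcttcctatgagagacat
Cyp3a11 intron 1, upper border of a WT LAD, chr5:146691220-146691259, plus strand: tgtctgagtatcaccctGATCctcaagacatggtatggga
Cyp3a25 intron 10, upper border of a WT LAD, chr5:146797714-146797753, plus strand: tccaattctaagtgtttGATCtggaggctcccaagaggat
Cyp3a25 intron 3, lower border of a WT LAD, chr5:146811802-146811841, plus strand: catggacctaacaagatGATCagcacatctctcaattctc

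In Cyp3a57 the KO border lay 256 bases and in Cyp3a11 80 bases from the nearest exon, both in intron 11 though the genes are of different sequence groups and strands. In Cyp3a16 it lay 183 bases from the nearest exon in intron 4, and in Cyp3a44 3825 bases away in intron 10. The WT borders of Cyp3a25 were 649 bases from an exon in intron 10 and 1203 bases in intron 3. These are distances between listed positions, and the error of a border is not known.

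Genes and the sequence between them differed in what was kept. Gene spans, 255 kb in all, were 94.3% in WT LADs and 20.3% in KO LADs, so that 78.5% of their WT LAD bases were lost. The 514 kb between genes, without the assembly gap, were 95.3% in WT LADs and 42.7% in KO LADs, with 55.2% lost. Put differently, 80.9% of the KO LAD bases in the cluster, 219 kb of them against 51.7 kb in genes, lay between genes. The longest KO LAD, 72.2 kb at chr5:146238191-146310364, lay between Cyp3a16 and Cyp3a41b and touched neither. These shares come from 1 list for each genotype and 8 genes, and carry no error.

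Base composition was close in the lost and the kept stretches, and digestion sites were somewhat denser in the kept ones. GC content was 41.7% in lost and 41.3% in kept WT LAD sequence, with 1 GATC in every 334 and every 280 bases. Repeated sequence was unevenly spread along the cluster. Of the 31-base words of the cluster 51.5% occurred elsewhere in the genome on either strand, against 16.2% and 27.4% in the 500 kb below and above it. The share was 47.8% in lost and 60.6% in kept stretches.

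Among the genes the share of such words was highest in Cyp3a41b and Cyp3a41a, 90.4% and 89.1%, and most of these words, 86.6% and 85.1% of all words of the gene, had all of their copies within the cluster. It was 50% in Cyp3a44, 37.3% in Cyp3a16, 33.2% in Cyp3a59, 31.5% in Cyp3a25, 23.5% in Cyp3a11 and 14.6% in Cyp3a57, and 4.52% in Cyp3a13. A read that holds no other sequence than such words may match several loci equally well. Neither the read length nor the treatment of such reads was given in the sources used here. The positions of Cyp3a41a and Cyp3a41b are held as uncertain and cannot count as separate observations. Without them 6 of 6 cluster genes were PI, among them Cyp3a57 and Cyp3a11 with the fewest repeated words. The part of repeated sequence and of the lower KO depth in these losses was not tested.

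**Figure D4:**
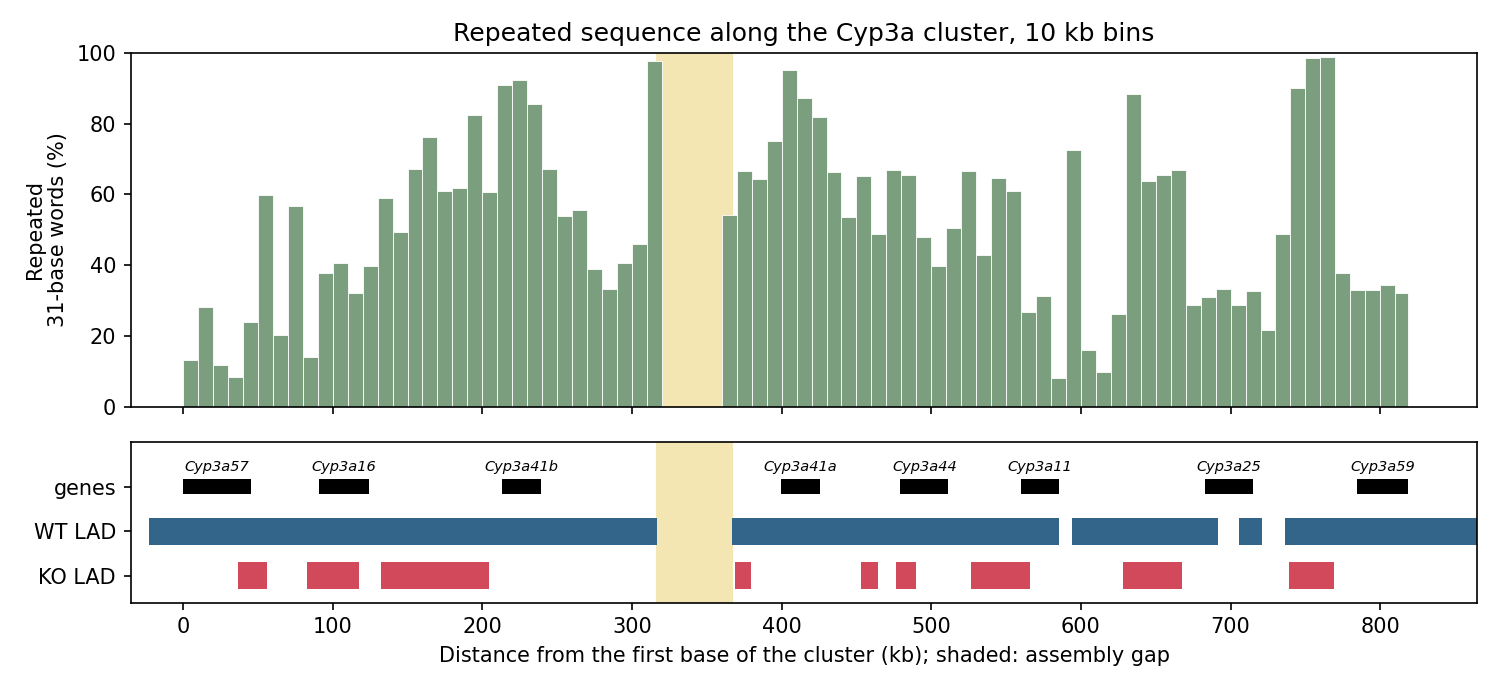
Share of 31-base words with a copy elsewhere in the genome, in percent for bins of 10 kb along the cluster, above the genes and the LADs of both genotypes, with the assembly gap shaded. The bins over Cyp3a41b and Cyp3a41a are among the highest, and KO LADs lie over bins of both high and low share.

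Cyp3a13 (chr5:138334160-138362847, minus strand), expressed in intestine as well as liver, differed from the cluster genes in position and sequence. It touched no LAD in either genotype, and its start was 373 kb from the nearest WT LAD and 136 kb from the nearest KO LAD. In the window of the gene with 500 kb on each side, WT LADs covered 7.66% and KO LADs 7.71%. Of the annotated gene entries in that window 22 of 22 below and 21 of 23 above were II. Overlapping entries of BC037034, above, were counted separately. The nearest genes were Pilrb2, 21.2 kb below, and Gjc3, 32.2 kb above. The exceptions were Stag3, which was PI, and Gm10874, which was IP, from interior to periphery.

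The cluster began with a sharp change at its lower side. Its first WT LAD started 22.6 kb below Cyp3a57, and the next WT LAD below was 659 kb away. In the 500 kb below the cluster WT LADs covered 4.52% and KO LADs 2.77%, and 15 of 16 genes were II, the nearest being the zinc finger gene Zfp498 at 53.8 kb. The exception was Kpna7, IP with 13.8% of its span in a KO-only DR.

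Above the cluster the lamina association went on and was mixed. WT LADs covered 53.5% of the 500 kb and KO LADs 24.6%, and the KO list left out 71.7% of the WT bases. That stretch held 7 WT-only and 3 KO-only DRs. Of its 11 genes 5 were PI, 1 IP, 2 AMB (in both kinds of DR), 1 PP (periphery in both) and 2 II. The nearest, Gm6309 at 54.7 kb, was AMB with 64.1% of its span in a KO-only DR, and the next, the ubiquitin ligase gene Rnf6 and the kinase gene Cdk8, were II. Losses thus went on past Cyp3a59, while the KO-only DRs lay outside the cluster.

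Set against the rest of the genome, the cluster lost a large share of its WT LAD bases. The 62.9% lost in the cluster stood beside 12.9% over the genome, 15.6% over chromosome 5 and 60.8% over chromosome 19. In adjoining windows of 819 kb tiled over all chromosomes, 1869 were at least 50% WT LAD, and their median loss was 8.51%. Of these 17 lost at least as much as the cluster, 13 of the 30 on chromosome 19, 4 of the 1839 elsewhere and 0 of the 97 on chromosome 5. The cluster was chosen with its losses known, so this ranks it and tests nothing. Nor does it set the cluster apart from its surroundings. Losses were uneven along chromosome 5, and most windows towards its upper end, where the cluster lies, lost well above 15.6%. The 500 kb above the cluster lost 71.7% of its WT LAD bases. The tiled windows were not aligned to the cluster, so its bases fell in windows that also held flanking sequence.

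**Figure D5:**
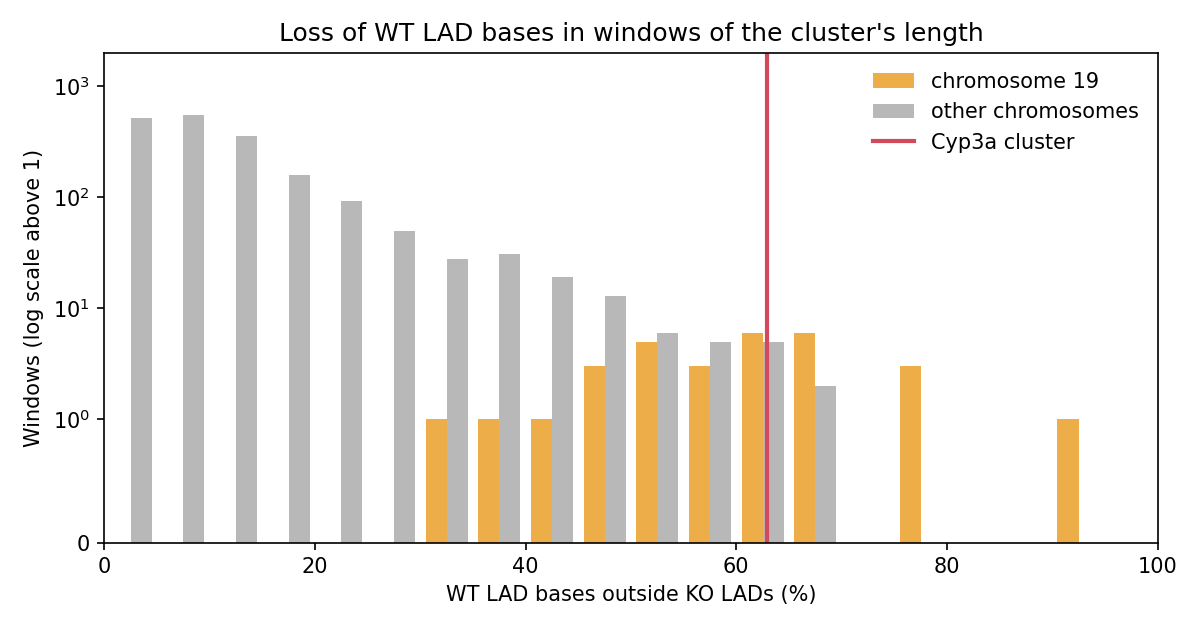
Number of windows of 819 kb, at least 50% WT LAD, by the share of WT LAD bases outside KO LADs in percent. Bars are side by side for chromosome 19 and the other chromosomes, the count axis is logarithmic above 1, and the line marks the Cyp3a cluster at 62.9%, where few windows outside chromosome 19 lie.

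Other drug-metabolizing P450 clusters are set beside it as a description of the same lists. Over gene spans the Cyp3a genes were 84.8% in WT and 18.3% in KO LADs, with 78.5% lost. The 15 Cyp2c genes of chromosome 19, which metabolize drugs and arachidonic acid, were 68.9% in WT and 32.2% in KO LADs with 58.5% lost, and 12 were PI. Of their starts the WT LADs held 6 and the KO LADs 3. The 9 Cyp2a and Cyp2b genes of chromosome 7 were 33.4% in WT and 0% in KO LADs, with 100% lost, more than in Cyp3a, and 5 were PI. Their starts in LADs numbered 4 in WT and 0 in KO, beside 7 and 0 for Cyp3a. The 6 Cyp4a genes of chromosome 4, fatty acid hydroxylases, were 84.9% in WT, close to Cyp3a, but kept 69.8% in KO LADs, with 20.5% lost and 2 PI, and the starts in LADs numbered 3 in WT and 2 in KO. All 9 Cyp2d genes of chromosome 15 were II.

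Genes that act with the CYP3A enzymes were also placed. Of the 24 listed, 23 were found in the annotation, and 19 were II, 2 PP, 2 IP and 0 PI. Among all protein-coding genes 56.6% were II, 17.9% PP, 17.1% IP and 5.43% PI, so that 0 PI among so few genes is near the background. The electron donors Por, Cyb5, Cyb5b and Cyb5r3 and the heme synthesis gene Alas1 were II. The receptor genes Nr1i2 (PXR), Nr1i3 (CAR), Rxra, Nr1h4, Vdr and Nr3c1 were II, and so were the liver transcription factor genes Hnf4a, Cebpa, Cebpb, Foxa1, Foxa2 and Foxa3. Among the genes of conjugation and export, Gsta1 and Abcc2 were II, and Ugt1a1 and Sult2a1 were wholly in LADs of both genotypes. The IP genes were the neighbouring P-glycoprotein transporter genes of chromosome 5, Abcb1a with 88.6% and Abcb1b with 63.8% of the span in a KO-only DR, both with the start in a KO LAD. P-glycoprotein exports many of the drugs that CYP3A enzymes oxidize. Its 2 genes are neighbours and do not count as separate observations, and 2 IP of 23 genes is not above the 17.1% of all genes.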

How the data were processed

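The authors mapped reads to mm9 (BWA and limma are named in the submitters' processing notes, without versions), took the log2 ratio over Dam alone for each DpnI fragment, called LADs with DNAcopy at default parameters and obtained DRs by subtraction of LADs. The authors deposited 2 LAD and 2 DR lists, which hold chromosome, start and end only. Repeating this subtraction with a minimum length of 10 kb gave back every deposited DR. The members and lists of genes were chosen with earlier results of these data known.

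Gene spans, start sites and exons (from the coding transcript with most exonic sequence) came from the GENCODE annotation of NCBIM37, the assembly of mm9. Positions are 1-based, and an overlap of at least 1 base counted. The cluster joined members within 1 Mb of each other. Words of 31 bases were counted on both strands of the whole genome. Coding sequences were aligned with Biopython 1.88, and intervals were handled with Python 3.11.15, numpy 2.4.6 and pysam 0.24.0. Interval and word steps were tested on simulated data. RefSeq promoters were placed by exact match, and no coordinate of GRCm38.p6 was used. Genes were named by position and list, not by value, namely all 9 members, the nearest neighbours within 500 kb with those of another class, 4 P450 families and 24 pathway genes, with a further listed gene not reported here. Alternatives are given in the closing section. No test was run, because each genotype had 1 pooled library pair.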

Additional observations from a re-analysis of the deposited data

How the results depend on the processing

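Of 46 values recomputed under other settings, 41 stayed within 1.5 times the reported value. Some had little room to move, such as shares at or near 100% and values of 0, and 6 PI genes in place of 8 counted as within that limit. The tally is therefore no measure of how firm the results are. With LADs joined across gaps of up to 50 kb the cluster held 1 WT and 5 KO LADs. With only LADs of at least 20 kb it held 5 KO LADs, and the median share of the cluster gene spans in KO LADs was 0%, from 9.72%. With 100 kb added on each side KO-only DRs covered 11.1 kb, all outside the cluster itself. The number of PI genes was 6 with joined LADs, where Cyp3a16 and Cyp3a44 became PP, 7 when at least 50% of the span was asked for, where Cyp3a16 became PP, and 7 by start site alone, where Cyp3a11 became II. It was 8 with at least 10% of the span, with 100 kb centred on the gene, with LAD differences of any length and with LADs of at least 20 kb. The share of WT LAD bases lost ranged from 56.0% to 69.8%. With 5 kb on each side of the starts, 8 of 8 touched a WT LAD and 0 a KO LAD. Starts from RefSeq, coverage without the assembly gap, and counts without Cyp3a41a and Cyp3a41b were chosen after seeing the data. No paired analysis was possible because each genotype had 1 pooled library pair. Depth could not be judged from the lists, so a stretch outside a KO LAD was not called there and is not shown to have left the lamina.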
